A study of Mus musculus with 48 samples.

Results

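Foxp3 and 4 members of the Ikaros family, Ikzf1 (Ikaros), Ikzf2 (Helios), Ikzf3 (Aiolos) and Ikzf4 (Eos), were followed in regulatory T cells (Tregs) and conventional CD4 T cells (Tcons) of mice given IL-2. The members were chosen by gene symbol: each of the 5 symbols names 1 of the 53345 genes in the deposited matrices, and all 5 passed the filter on low values in every fit. C57BL/6 female mice of 8 to 12 weeks received 2 intraperitoneal doses of 500 µg of an isotype antibody or of one blocking MHC class II (MHC II block), and 1 subcutaneous dose of PBS or of 25 µg of a human IL-2 fused to Fc: WT IL-2 or one of the attenuated muteins H16R and 3x. Spleens were taken on day 4. Tregs were the magnetically bound CD25+ fraction and Tcons the CD25- flow-through, so the separation rested on CD25, not on Foxp3. The paper also stained small aliquots for Foxp3 and reports that most samples were largely Foxp3+ after purification. The 8 combinations of antibody and molecule gave 4 Treg libraries each (32) and 2 Tcon libraries each (16), the Tcons from mice that also gave a Treg library. In the isotype WT IL-2 group 2 of the Treg libraries carry the same mouse label (replicates 3a and 3b) and were kept as separate libraries. If both came from 1 mouse, the tests that use this group count that mouse as 2 replicates. No group was free of both antibody and injection, since the PBS controls also carried an antibody.

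Foxp3 is the forkhead transcription factor that defines the Treg lineage, and its gene is known to be a target of STAT5, which IL-2 receptor signaling activates. The Ikaros family are zinc finger proteins that bind DNA through amino-terminal fingers and pair with each other through carboxy-terminal ones, often with repressor complexes. Helios and Eos are known for their high expression in Tregs and for supporting Foxp3-dependent repression, whereas Ikaros and Aiolos are used widely across lymphocytes, B cells included.

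The genes lie apart from each other in the genome. By GENCODE vM21 on GRCm38, Foxp3 is on the plus strand of chromosome X at 7573644 to 7595245, Ikzf1 on the plus strand of chromosome 11 at 11685003 to 11772926, and Ikzf3 on the minus strand of the same chromosome at 98464902 to 98546031. Ikzf2 is on the minus strand of chromosome 1 at 69531214 to 69687245, and Ikzf4 on the minus strand of chromosome 10 at 128630843 to 128645991. To show how alike the family is, and how far it can still be told apart by reads, the coding sequence of the second amino-terminal zinc finger is given here for the 4 members, with capitals where a base differs from Ikzf1 at the same place.

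Ikzf1, chr11:11754018-11754086, plus strand: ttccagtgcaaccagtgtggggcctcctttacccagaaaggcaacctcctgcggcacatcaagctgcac

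Ikzf2, chr1:69570581-69570649, minus strand: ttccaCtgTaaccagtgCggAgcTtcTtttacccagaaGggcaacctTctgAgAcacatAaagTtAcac

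Ikzf3, chr11:98488940-98489008, minus strand: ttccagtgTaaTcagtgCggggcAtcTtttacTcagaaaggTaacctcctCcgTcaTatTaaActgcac

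Ikzf4, chr10:128640229-128640297, minus strand: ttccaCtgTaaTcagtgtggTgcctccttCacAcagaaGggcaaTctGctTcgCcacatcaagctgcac

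Each stretch is 69 bases of coding sequence within a single exon, exon 6 of Ikzf1 and exon 5 of the others, read from the GENCODE vM21 transcripts, with coordinates on GRCm38. Ikzf2 differed from Ikzf1 at 13 bases, Ikzf3 at 12 and Ikzf4 at 11, yet the encoded fingers differed at 1, 0 and 1 residues. Over whole transcripts the longest exact run shared by any pair of the 5 genes was 32 bases, between Ikzf2 and Ikzf4. Foxp3 also overlaps other genes: it shares 853 exon bases on the same strand with the noncoding gene Flicr, whose expected counts were 0.963 to 1.61% of those of Foxp3 in Tregs and 2.10 to 4.46% in Tcons. On the opposite strand Foxp3 shares exon bases with Ccdc22 (590), Gm36995 (373) and Ppp1r3f (266), and the sources used here do not state whether reads were counted by strand.

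Promoter sequence was matched for 2 of the 5 members, Foxp3 and Ikzf1, from RefSeq on GRCm38.p6. Each window is 300 bases around an annotated start, most of it upstream. The windows of Foxp3, the lineage factor, are shown in lower case with capitals for the STAT motif TTCNNNGAA, the Ikaros core TGGGAA and the forkhead motif TGTTTAC, each searched on both strands.

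Foxp3, chrX:7579426-7579725, plus strand: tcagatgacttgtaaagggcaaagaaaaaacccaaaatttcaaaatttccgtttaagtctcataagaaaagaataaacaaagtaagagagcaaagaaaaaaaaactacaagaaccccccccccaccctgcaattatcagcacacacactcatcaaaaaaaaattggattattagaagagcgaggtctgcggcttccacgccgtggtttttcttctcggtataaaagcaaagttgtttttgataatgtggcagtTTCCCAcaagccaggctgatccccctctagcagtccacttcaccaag

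Foxp3, chrX:7580233-7580532, plus strand: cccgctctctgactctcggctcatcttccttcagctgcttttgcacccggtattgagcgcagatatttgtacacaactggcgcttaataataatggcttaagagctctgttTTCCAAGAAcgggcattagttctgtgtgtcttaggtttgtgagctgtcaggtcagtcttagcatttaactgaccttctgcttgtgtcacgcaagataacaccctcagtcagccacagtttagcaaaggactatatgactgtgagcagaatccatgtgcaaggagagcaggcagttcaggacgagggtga

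The first window held 1 Ikaros core match and the second 1 STAT match; one of the Ikzf1 windows also held a STAT match. Of 32851 promoter windows of this length, 8.3% held the STAT motif, 25.6% the Ikaros core and 3.65% the forkhead motif, so these matches are a description of the letters only.

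Depth ranged from 18.28 to 51.24 M expected counts per Treg library and from 31.31 to 51.95 M per Tcon library, lowest in the isotype PBS Tregs (18.28 to 34.58 M). The members were far above the floor of counting: the lowest expected count of Foxp3 was 13051 in Tregs and 1862 in Tcons, and the lowest of all, for Ikzf4 in a Tcon library, was 247. The labelled cell types were described by 5 Treg markers. Foxp3 is itself one, and another, Il2ra, encodes the CD25 used to separate the fractions, so their sum is no independent check. The markers summed to 2115 to 4142 CPM (counts scaled to a common library size) in Tregs and 242 to 1052 in Tcons. In bulk RNA, fewer cells of a type and less RNA per cell cannot be told apart. Certain libraries stood apart. The 10 B cell markers summed to 807 CPM in isotype PBS Treg replicate 1 against 163 to 202 in the rest of its group, and to 761 in MHC II block WT IL-2 Treg replicate 1 against 119 to 181. In the latter the 9 myeloid markers summed to 689 CPM against 45.4 to 98.7. Among Tcons, isotype WT IL-2 replicate 2 had Treg markers at 1052 CPM against 470.5 in its partner. Where a call changed without these libraries, both values are given.

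Levels of the 5 genes relative to each other were compared as FPKM, which divides by transcript length. In Tregs Foxp3 was the highest, at 183 to 311 FPKM with a median of 267, followed by Ikzf2 (median 106), Ikzf1 (90.1), Ikzf3 (78.4) and Ikzf4 (17.1). In Tcons the order changed: Ikzf1 was the highest, at a median of 149 FPKM, followed by Ikzf3 (63.4), Foxp3 (25.1), Ikzf2 (22.0) and Ikzf4 (2.31). The makeup of the Ikaros family therefore differed between the cell types. Ikzf1 made up 61.7% of the summed FPKM of the 4 family members in isotype PBS Tcons (n = 2) and 36.2 ± 0.517% (SD, n = 4) in isotype PBS Tregs, while Ikzf2 made up 8.36% and 31.7 ± 1.86%. With isotype antibody and WT IL-2, Ikzf2 rather than Ikzf1 was the largest share in Tregs, at 42.9 ± 3.72% against 26.5 ± 1.95%. The same held by the means with isotype H16R (40.3 against 26.6%) and isotype 3x (39.1 against 28.0%). It also held with block WT IL-2 (36.9 against 31.5%) and block H16R (34.1 against 31.0%). With block 3x the means were 32.1 and 32.3%. These shares are a description and were not tested.

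**Figure D1:**
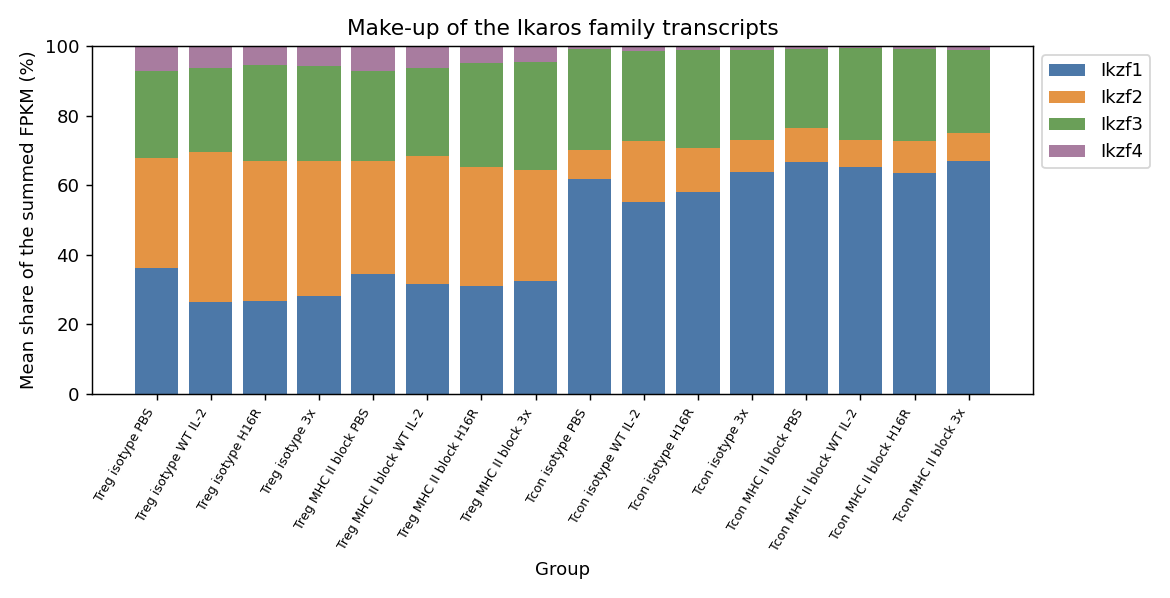
Mean share (percent, vertical axis) of each Ikaros family gene in the summed FPKM of Ikzf1, Ikzf2, Ikzf3 and Ikzf4, for the 8 Treg groups (n = 4 libraries each) and 8 Tcon groups (n = 2 each). Ikzf1 is the largest part in every Tcon group, and Ikzf2 and Ikzf4 take a larger part in every Treg group than in any Tcon group.

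Tregs were next compared with Tcons of the same mouse, to see which members separate the cell types and whether IL-2 changes the separation. In the comparison over 16 mice, with the mouse as a block, Foxp3 was 11.1-fold higher in Tregs (log2 fold change 3.48 ± 0.087, SE), Ikzf4 7.65-fold (2.94 ± 0.082) and Ikzf2 4.70-fold (2.23 ± 0.0912), whereas Ikzf1 was lower (-0.67 ± 0.0348) and Ikzf3 slightly higher (0.39 ± 0.059). All 5 were called, meaning an adjusted p below 0.1 by edgeR's quasi-likelihood test; since 80.5% of all tested genes were called in this comparison in either direction, that count by itself says little about the members. The within-mouse ratios show the sizes directly. Foxp3 was 5.47 to 14.7 times as high in Tregs, Ikzf4 4.44 to 12.2 times and Ikzf2 2.20 to 7.16 times, higher in 16 of 16 mice for each. The Treg to Tcon ratio of Ikzf1 was 0.541 to 0.735, below 1 in all 16 mice. Ikzf3 was higher in Tregs of 14 of 16 mice, at 0.884 to 1.89. The lowest ratios of Foxp3, Ikzf2 and Ikzf4 all belonged to isotype WT IL-2 mouse 2, whose Tcon library carried the high Treg markers. Without that mouse the log2 fold changes over all mice were 3.54, 2.31 and 3.01 for Foxp3, Ikzf2 and Ikzf4.

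**Figure D2:**
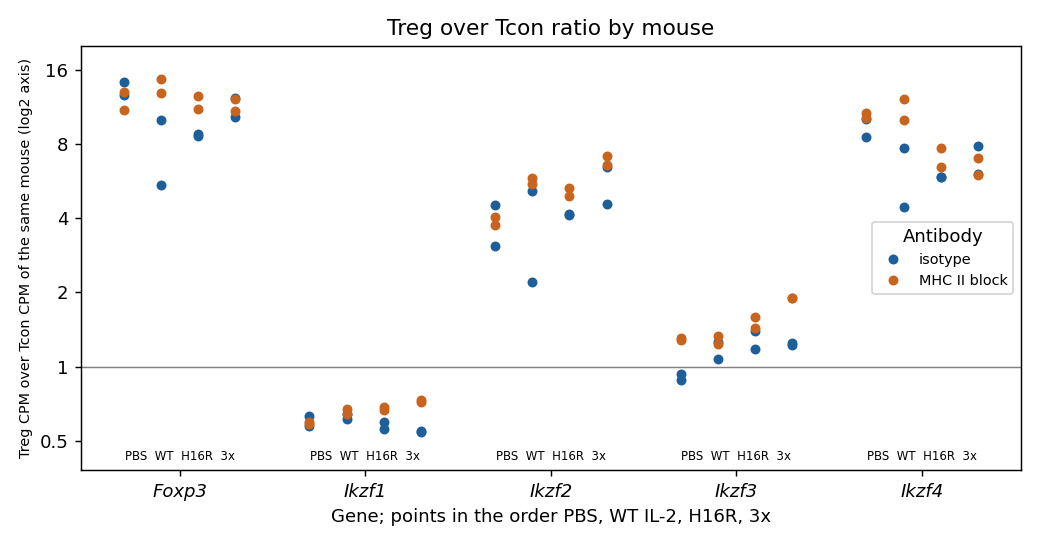
Ratio of Treg to Tcon CPM in each of 16 mice (vertical axis, log2 scale), by gene and injected molecule and colored by antibody; each point is 1 mouse and the grey line marks a ratio of 1. Foxp3, Ikzf2 and Ikzf4 lie above 1 in every mouse, Ikzf1 below 1 in every mouse, and Ikzf3 straddles 1 in the PBS mice.

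By injected molecule, 4 of 5 members were called between Tregs and Tcons in PBS mice (50.4% of all tested genes) and 5 of 5 in WT IL-2 (63.5%), H16R (70.4%) and 3x mice (71.2%). The exception was Ikzf3, which did not pass in PBS mice (0.12 ± 0.118 on the log2 scale, adjusted p = 0.425) but was higher in Tregs with 3x (0.63 ± 0.118, adjusted p = 0.000232). The PBS value pools mice that split by antibody: the Treg to Tcon ratio of Ikzf3 was 0.884 and 0.937 in the isotype PBS mice and 1.31 and 1.29 in the block PBS mice. In WT IL-2 mice the Ikzf3 call was lost without MHC II block mouse 1 (0.25, adjusted p = 0.133). The difference between those contrasts was itself past the threshold for 3x (0.50 ± 0.167, adjusted p = 0.0274) and, narrowly, for H16R (0.37 ± 0.167, adjusted p = 0.0984). Ikzf4 went the other way. Its Treg excess was 9.85-fold in PBS mice and 6.54-fold in H16R and 6.74-fold in 3x mice, a difference of -0.59 ± 0.222 (adjusted p = 0.0537) and -0.55 ± 0.222 (adjusted p = 0.064). With isotype, group means of Ikzf4 with PBS, H16R and 3x were 95.9, 88.3 and 90.2 CPM in Tregs and 10.4, 15.0 and 13.4 in Tcons. Under block they were 99.3, 73.5 and 69.5 CPM in Tregs and 9.78, 11.1 and 11.3 in Tcons. The 5 Treg markers in the same order summed to 296 to 337, 546 to 557 and 388 to 487 CPM in isotype Tcons. Under block they summed to 390 to 397, 413 to 417 and 355 to 367 CPM. The part of Treg RNA was not tested. Ikzf2 had a wider Treg excess with 3x than with PBS (0.68 ± 0.247, adjusted p = 0.0401), a call that was lost with limma on log2(FPKM + 1) (0.44, adjusted p = 0.147), without isotype PBS mouse 1 (0.58, adjusted p = 0.11) and without MHC II block 3x mouse 2 (0.59, adjusted p = 0.101). The members called in these differences from PBS were 0 of 5 for WT IL-2 (12.2% of all genes, or 1567 genes, and 246 to 3212 genes when 1 mouse was left out), 2 of 5 for H16R (40.6%) and 3 of 5 for 3x (46.5%). For WT IL-2, 0 members had an unadjusted p under 0.05 by edgeR, and DESeq2 also called 0. Leaving out isotype WT IL-2 mouse 2 made the difference for Ikzf2 with WT IL-2 0.53, with an adjusted p of 0.0275, against 0.21 (adjusted p = 0.618) with it. Without the same mouse the H16R difference of Foxp3, -0.30 (adjusted p = 0.317) with it, was -0.32 (adjusted p = 0.081), and that of Ikzf3 was 0.36 (adjusted p = 0.101). The Ikzf3 difference for H16R was called in 10 of 24 alternatives, with RLE size factors giving 0.35 (adjusted p = 0.112) and the fit without isotype PBS mouse 1 giving 0.26 (adjusted p = 0.286). The Ikzf4 differences were called in 21 of 24 alternatives for H16R and 19 of 24 for 3x.

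The response of Tregs to IL-2 with intact MHC class II was examined in the isotype arm. Foxp3, Ikzf2 and Ikzf3 rose with each of the molecules, Ikzf1 fell with WT IL-2 and H16R, and Ikzf4 did not pass the test. The members called were 4 of 5 with WT IL-2 (52.2% of all tested genes were called), 4 of 5 with H16R (64.2%) and 3 of 5 with 3x (63.6%), shares to be read against a response in which most genes were called. The comparisons of one arm share its 4 PBS libraries.

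Foxp3, the lineage factor, was at 745, 763, 786 and 713 CPM in isotype PBS Tregs (TMM-scaled CPM here and below), with a mean of 752 ± 30.6 (SD, n = 4). It was at 983, 998, 1036 and 1032 CPM with WT IL-2. With the muteins it was at 1124, 1179, 1249 and 1135 CPM (H16R) and at 1146, 1116, 1167 and 1144 CPM (3x). Every IL-2 library lay above every PBS library, and every mutein library above every WT IL-2 library. The log2 fold changes against PBS were 0.43 ± 0.0558 (WT IL-2, adjusted p = 5.66e-07), 0.64 ± 0.056 (H16R, adjusted p = 1.61e-10) and 0.61 ± 0.0559 (3x, adjusted p = 5.02e-10). The muteins exceeded WT IL-2 by 0.22 ± 0.0557 (H16R, adjusted p = 0.0116) and 0.19 ± 0.0557 (3x, adjusted p = 0.013). H16R and 3x were not separated, with a difference of -0.03 for 3x against H16R and a 95% interval from -0.14 to 0.08.

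Ikzf2, which encodes Helios, was at 527, 675, 604 and 761 CPM with PBS. It was at 899, 1093, 886 and 1146 CPM with WT IL-2, and at 970.2 to 1081 CPM with H16R and 951 to 1008 CPM with 3x. The groups did not overlap with PBS, and the rises were 0.65 ± 0.103 (WT IL-2), 0.65 ± 0.103 (H16R) and 0.63 ± 0.103 (3x) on the log2 scale, with adjusted p-values of 1.03e-05, 4.51e-06 and 7.65e-06. For Ikzf2 the muteins were not separated from WT IL-2 (H16R 95% interval from -0.21 to 0.21, 3x from -0.23 to 0.19). The isotype PBS value of replicate 1, the library with high B cell markers, was the lowest for Ikzf2, and without it and MHC II block WT IL-2 replicate 1 the rises were 0.57, 0.58 and 0.55.

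Ikzf3, which encodes Aiolos, was at 233, 243, 233 and 263 CPM with PBS and at 287, 251, 273 and 276 CPM with WT IL-2, so these groups overlapped. With H16R it was at 341, 309.8, 345 and 312 CPM and with 3x at 308, 311, 307 and 335 CPM, above every PBS and WT IL-2 library. The log2 fold changes against PBS were 0.16 ± 0.0431 (WT IL-2, adjusted p = 0.00315), 0.43 ± 0.0432 (H16R, adjusted p = 1.95e-09) and 0.39 ± 0.0431 (3x, adjusted p = 1.83e-08). The muteins exceeded WT IL-2 by 0.27 ± 0.0429 (adjusted p = 0.000199) and 0.22 ± 0.0429 (adjusted p = 0.000305). Foxp3 and Ikzf3 thus shared the order of muteins above WT IL-2 above PBS, while Ikzf2 did not.

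Ikzf1, which encodes Ikaros, was at 373, 415, 404 and 466 CPM with PBS and at 369, 349, 344 and 340.4 CPM with WT IL-2. All WT IL-2 libraries were below all PBS libraries, by -0.24 ± 0.0508 on the log2 scale (adjusted p = 0.000344). The fall with H16R was smaller (-0.14 ± 0.0507, adjusted p = 0.0198) and its call was lost without isotype PBS replicate 4, the highest library (-0.08, adjusted p = 0.15). With 3x the value was -0.08 ± 0.0507 (adjusted p = 0.163), and 3x stood above WT IL-2 (0.16 ± 0.0506, adjusted p = 0.0209). Ikzf1 was called lower with 3x without the 2 Treg libraries that stand apart (-0.13, adjusted p = 0.0425), with total counts alone (-0.14, adjusted p = 0.0209) and with limma on log2(FPKM + 1) (-0.18, adjusted p = 0.00185).

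Ikzf4, which encodes Eos, was at 92.6, 101, 92.7 and 97.2 CPM with PBS, and its means with WT IL-2, H16R and 3x were 95.9 ± 11, 88.3 ± 9.51 and 90.2 ± 2.09 CPM. All these groups overlapped. The 95% intervals of the log2 fold changes ran from -0.18 to 0.18 (WT IL-2), from -0.30 to 0.07 (H16R) and from -0.26 to 0.10 (3x). With H16R Ikzf4 was called lower in 3 of 43 alternatives: with limma on log2(FPKM + 1) (-0.21, adjusted p = 0.0394), with total counts alone (-0.18, adjusted p = 0.0883) and without isotype H16R replicate 4 (-0.18, adjusted p = 0.0992).

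**Figure D3:**
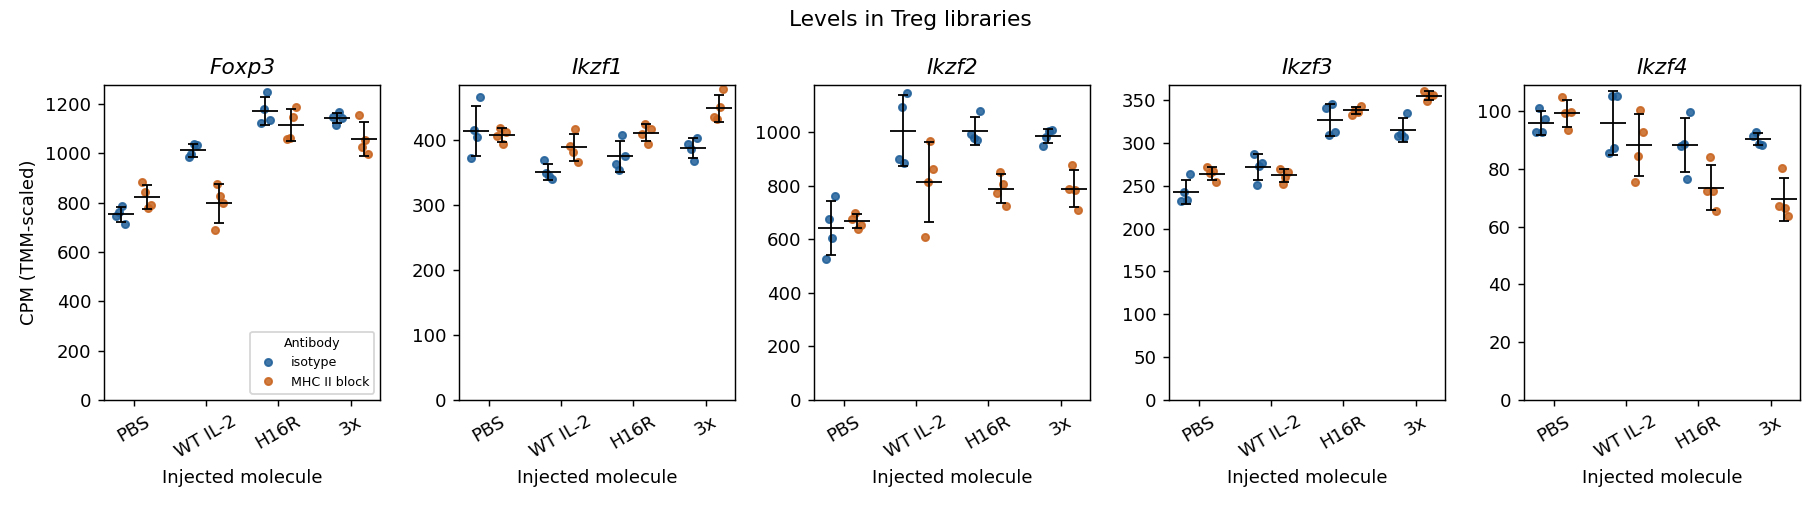
Level of each gene (TMM-scaled CPM, vertical axis from 0) in the 32 Treg libraries, by injected molecule and colored by antibody; points are libraries, black dashes group means and bars the SD (n = 4). Foxp3 with WT IL-2 lies at 983 to 1036 CPM with isotype and at 687 to 874 CPM with MHC II block, and Ikzf4 with 3x lies at 63.8 to 80.4 CPM with MHC II block, below both PBS groups.

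Comparing the muteins with WT IL-2 in the isotype arm, 2 of 5 members were called for H16R (18.6% of all genes) and 3 of 5 for 3x (34.7%), and for 3x against H16R 0 of 5 (11.5%). In the MHC II block arm the counts were 3 of 5 for H16R (57.5%), 4 of 5 for 3x (68.7%) and 0 of 5 for 3x against H16R (25.2%). For 3x against H16R under block, 1 member had an unadjusted p under 0.05 by edgeR, Ikzf1 (0.12 ± 0.0506, adjusted p = 0.101), and DESeq2 called 1; with isotype 0 members had such a p and DESeq2 called 0. Without the 2 Treg libraries that stand apart the Ikzf1 difference was called (0.12, adjusted p = 0.0761). So, under block, was Ikzf2 with H16R and 3x against WT IL-2, at -0.17 (adjusted p = 0.0983) and -0.18 (adjusted p = 0.0729), against -0.06 (adjusted p = 0.627) and -0.07 (adjusted p = 0.566) with them. The 95% intervals of the differences between the muteins lay within -0.27 to 0.22 for all 5 members in both arms.

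MHC class II presents antigen to CD4 T cells, and the second arm asked how each molecule acts when it is blocked; how complete the block was is not measured in these data. Against MHC II block PBS, 1 of 5 members was called with WT IL-2 (35.6% of all tested genes), 4 of 5 with H16R (66.5%) and 5 of 5 with 3x (73.0%). Foxp3 and Ikzf3 did not pass the test with WT IL-2 but rose with both muteins. Ikzf2 rose with each molecule, by less than with isotype for the muteins, and Ikzf4, which was not called in the isotype arm, fell with both muteins.

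Foxp3 was at 883, 842, 779 and 789 CPM with MHC II block and PBS, and at 687, 874, 828 and 799 CPM with block and WT IL-2. These groups overlapped, and the log2 fold change was -0.03 ± 0.0557, with a 95% interval from -0.14 to 0.09. With block and H16R it was at 1056, 1064, 1148 and 1186 CPM, and with 3x at 1156, 1024, 1053 and 999 CPM, all above the PBS libraries. The rises were 0.43 ± 0.0558 (H16R, adjusted p = 1.79e-07) and 0.35 ± 0.0558 (3x, adjusted p = 3.11e-06), and the muteins exceeded WT IL-2 by 0.46 ± 0.0558 and 0.38 ± 0.0558. The response was smaller under block than with isotype for every molecule: the interaction was -0.46 ± 0.0789 for WT IL-2 (adjusted p = 0.000317), -0.21 ± 0.0788 for H16R (adjusted p = 0.0793) and -0.26 ± 0.0788 for 3x (adjusted p = 0.0132). The lowest Foxp3 value, 687 CPM, was in replicate 1 of block WT IL-2, with the high B cell and myeloid markers. Without it and isotype PBS replicate 1, the change with WT IL-2 under block was 0.03 (adjusted p = 0.74) and the interaction -0.40 (adjusted p = 0.00111). The H16R interaction was called in 30 of 43 alternatives; without a filter on low CPM its adjusted p was 0.156, and without isotype PBS replicate 1 it was 0.107.

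Ikzf3 under block was at 272, 264, 267 and 254 CPM with PBS and at 269, 252, 261 and 266 CPM with WT IL-2, a log2 fold change of 0.01 ± 0.043. It was at 333 to 344 CPM with H16R and 349 to 361 CPM with 3x, and the 3x libraries were above all other Treg groups. The rises were 0.35 ± 0.043 (adjusted p = 7.32e-08) and 0.42 ± 0.043 (adjusted p = 1.95e-09). The interaction was -0.16 ± 0.0609 for WT IL-2 (adjusted p = 0.0891), called in 30 of 43 alternatives and at -0.14 (adjusted p = 0.137) without isotype PBS replicate 1. For H16R and 3x it was -0.08 (95% interval from -0.21 to 0.04) and 0.03 (from -0.10 to 0.15).

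Ikzf2 under block was at 677, 699, 639.8 and 652 CPM with PBS and at 609.5, 814, 967 and 863 CPM with WT IL-2. It was at 773, 853, 806 and 724 CPM with H16R and at 788, 878, 784 and 709 CPM with 3x. The rises were 0.30 ± 0.103 (WT IL-2, adjusted p = 0.0276), 0.24 ± 0.103 (H16R, adjusted p = 0.0445) and 0.23 ± 0.103 (3x, adjusted p = 0.0454). They were smaller than with isotype by -0.41 ± 0.145 for H16R (adjusted p = 0.0622) and -0.40 ± 0.145 for 3x (adjusted p = 0.0378); for WT IL-2 the interaction of -0.35 ± 0.145 did not pass (adjusted p = 0.114), but it was called in 15 of 43 alternatives, among them DESeq2 (-0.36, adjusted p = 0.0757), limma on log2(FPKM + 1) (-0.43, adjusted p = 0.0354) and the fit without isotype PBS replicate 4 (-0.45, adjusted p = 0.0346). The H16R interaction lost its call in 6 of 43 alternatives, among them without isotype PBS replicate 1 (-0.34, adjusted p = 0.141) and replicate 3 (-0.38, adjusted p = 0.112); without both libraries that stand apart it was called (-0.34, adjusted p = 0.065). Without the 2 libraries that stand apart the WT IL-2 rise under block was 0.41 (adjusted p = 0.000794) and the WT IL-2 interaction -0.16 (adjusted p = 0.396). With limma on log2(FPKM + 1) all the Ikzf2 rises under block lost their call, at 0.16, 0.13 and 0.08. Without MHC II block WT IL-2 replicate 3 the WT IL-2 rise was 0.21 (adjusted p = 0.132), without H16R replicate 2 that of H16R was 0.19 (adjusted p = 0.13), and without 3x replicate 2 that of 3x was 0.18 (adjusted p = 0.145).

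Ikzf4 under block was at 105, 99.3, 93.5 and 99.5 CPM with PBS and at 75.4, 84.4, 100.4 and 92.6 CPM with WT IL-2. It was at 72.5, 84.0, 72.2 and 65.3 CPM with H16R and at 67.2, 80.4, 66.5 and 63.8 CPM with 3x. All mutein libraries lay below all PBS libraries, while WT IL-2 overlapped with PBS (-0.15, adjusted p = 0.208; with limma on FPKM -0.23, adjusted p = 0.0438, and without MHC II block WT IL-2 replicate 3 -0.21, adjusted p = 0.0907). The falls were -0.44 ± 0.0895 (H16R, adjusted p = 0.000135) and -0.52 ± 0.0892 (3x, adjusted p = 8.73e-06), and the muteins stood below WT IL-2 by -0.29 ± 0.0892 (adjusted p = 0.00983) and -0.37 ± 0.089 (adjusted p = 0.000743). The interaction was -0.45 ± 0.126 for 3x (adjusted p = 0.00905) and -0.32 ± 0.126 for H16R (adjusted p = 0.0948); the latter was called in 23 of 43 alternatives and had an adjusted p of 0.115 without both libraries that stand apart.

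Ikzf1 under block was at 395 to 419 CPM with PBS, 367 to 417 with WT IL-2, 394 to 424 with H16R and 432 to 478 with 3x. With 3x it was above the PBS libraries, by 0.13 ± 0.0506 (adjusted p = 0.027), and with WT IL-2 it was not called (-0.05, 95% interval from -0.15 to 0.05), though limma on FPKM called it lower (-0.14, adjusted p = 0.0213). The change with 3x differed from that with isotype, and the interaction was 0.21 ± 0.0717 (adjusted p = 0.0265). The rise with 3x lost its call with total counts alone (0.09, adjusted p = 0.111) and with limma on FPKM (0.01, adjusted p = 0.806). The WT IL-2 interaction (0.19 ± 0.0717, adjusted p = 0.0744) was called in 23 of 43 alternatives and was 0.18 (adjusted p = 0.122) without MHC II block WT IL-2 replicate 1. The H16R interaction (0.15 ± 0.0717, adjusted p = 0.173) was called without both libraries that stand apart (0.19, adjusted p = 0.0845).

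**Figure D4:**
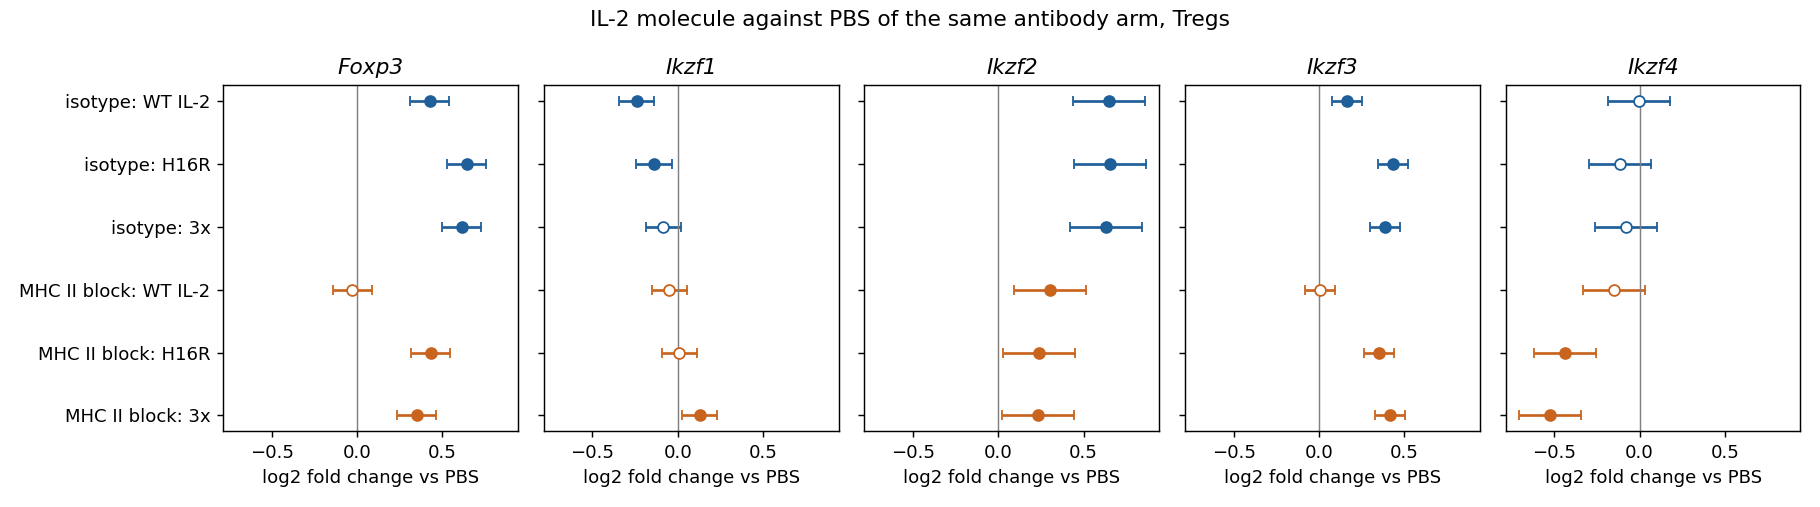
Log2 fold change of each gene in Tregs against PBS of the same antibody arm (horizontal axis), with the 95% interval from edgeR's quasi-likelihood fit over 32 libraries; filled points have an adjusted p below 0.1 and open points do not. Foxp3 and Ikzf3 with WT IL-2 sit near 0 under MHC II block, and the intervals of Ikzf4 lie wholly below 0 for H16R and 3x under block but not with isotype.

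Among the interactions, 3 of 5 members were called for WT IL-2 (19.7% of all tested genes), 3 of 5 for H16R (19.1%) and 4 of 5 for 3x (39.0%). Block was also compared with isotype directly within a molecule. In PBS mice 1 of 5 members was called (14.1% of all genes), Ikzf3, which was 0.12 ± 0.0432 higher with block (adjusted p = 0.0754) with groups that overlapped; the call was lost in 11 of 43 alternatives, among them without both libraries that stand apart (0.11, adjusted p = 0.127). Foxp3 in PBS mice was 0.13 ± 0.0558 (adjusted p = 0.151), and was called with total counts alone (0.15, adjusted p = 0.0865), with limma on FPKM (0.15, adjusted p = 0.0795) and without MHC II block WT IL-2 replicate 1 (0.13, adjusted p = 0.0927). With WT IL-2 3 of 5 were called (33.6%): Foxp3 was lower with block in every library (-0.33 ± 0.0557, adjusted p = 7.97e-05), Ikzf2 lower (-0.29 ± 0.103, adjusted p = 0.036) and Ikzf1 higher (0.17 ± 0.0506, adjusted p = 0.0143). The Ikzf2 groups overlapped. Its call was lost without MHC II block WT IL-2 replicate 1 (-0.18, adjusted p = 0.182) and without both libraries that stand apart (-0.18, adjusted p = 0.136). With H16R 3 of 5 were called (30.7%), Ikzf2 (-0.36 ± 0.103) and Ikzf4 (-0.27 ± 0.0893) lower and Ikzf1 (0.13 ± 0.0507, adjusted p = 0.0716) higher, while Foxp3 was not called (-0.08 ± 0.0557, adjusted p = 0.292). The Ikzf1 call held in 36 of 43 alternatives and was lost, among others, with thinning (0.12, adjusted p = 0.114) and without isotype H16R replicate 2 (0.10, adjusted p = 0.203). With 3x 5 of 5 were called (54.1%): Ikzf4 (-0.40 ± 0.0889), Ikzf2 (-0.34 ± 0.103) and Foxp3 (-0.13 ± 0.0557) were lower and Ikzf1 (0.19 ± 0.0506) and Ikzf3 (0.15 ± 0.0428) higher. The Foxp3 groups overlapped with 3x, and its call was lost in 8 of 43 alternatives, among them total counts alone (-0.09, adjusted p = 0.171), no filter on low CPM (-0.10, adjusted p = 0.227), all biotypes (-0.09, adjusted p = 0.268) and limma on FPKM (-0.09, adjusted p = 0.171).

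In the order of the 8 Treg groups by mean CPM, Foxp3 ran from isotype H16R (1172 ± 56.6) down through isotype 3x, block H16R, block 3x and isotype WT IL-2 (1012 ± 25.8) to block PBS (823 ± 48.3), block WT IL-2 and isotype PBS (752 ± 30.6). All neighbours overlapped except isotype WT IL-2 and block PBS, so the order has a single clear step. Ikzf3 had a step below block 3x (355 ± 5.14 CPM) and another between isotype 3x (315 ± 13.6) and isotype WT IL-2 (272 ± 15), with both PBS groups and both WT IL-2 groups below the latter step. By its means Ikzf2 was highest in the isotype IL-2 groups (986 to 1006 CPM), intermediate in the block IL-2 groups (789 to 814 CPM) and lowest with PBS. Only block H16R and block PBS were neighbours that did not overlap, and this was no step across all groups. Block WT IL-2 replicate 1 (609.5 CPM) lay below every block PBS library. Isotype PBS replicate 4 (761 CPM) lay above block H16R replicate 4 (724 CPM) and block 3x replicate 4 (709 CPM). Neighbouring groups of Ikzf1 and Ikzf4 overlapped throughout, from 449 ± 20.8 CPM (block 3x) to 351 ± 12.8 CPM (isotype WT IL-2) for Ikzf1 and from 99.3 ± 4.65 CPM (block PBS) to 69.5 ± 7.46 CPM (block 3x) for Ikzf4.

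Markers of other cells and of division moved with the same groups. The 6 markers of dividing cells summed to 279 to 341 CPM in isotype PBS Tregs, 390 to 546 with WT IL-2, 434 to 571 with H16R and 607 to 963 with 3x, and under block to 321 to 353, 415 to 536, 654 to 766 and 952 to 1292 CPM. The 10 B cell markers, from a lineage that also uses Ikzf1 and Ikzf3, were all detected in every Treg library, with sums of 163 to 807 CPM in isotype PBS Tregs, 75.2 to 124 with WT IL-2, 41.2 to 56.2 with H16R and 37.6 to 50.0 with 3x, and under block of 95.0 to 191, 119 to 761, 69.6 to 117 and 77.8 to 158 CPM. The 5 plasma cell markers, also all detected in every Treg library, summed to 1666 to 1991 CPM in isotype PBS Tregs, 772 to 922 with WT IL-2, 295 to 560 with H16R and 178 to 271 with 3x, and under block to 719 to 2080, 1710 to 3422, 689 to 1411 and 727 to 1555 CPM in the same order. Where block was compared with isotype, myeloid and dendritic cell markers were higher with block in the Tregs of all IL-2 groups. For WT IL-2 the 9 myeloid markers summed to 24.3 to 41.8 CPM with isotype and 45.4 to 689 with block, and the 6 dendritic cell markers to 11.4 to 15.5 and 27.9 to 94.9 CPM. The myeloid markers summed to 19.7 to 26.2 CPM with isotype and 48.0 to 90.5 with block for H16R, and to 24.9 to 29.8 and 61.1 to 80.7 CPM for 3x. The dendritic cell markers summed to 6.26 to 8.72 and 22.1 to 33.4 CPM for H16R, and to 7.18 to 9.97 and 22.0 to 31.1 CPM for 3x. The part of these cells in the results was not tested.

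For Tcons, the effect of each molecule was taken over both antibody arms, 4 libraries per molecule. Foxp3 rose with H16R and Ikzf1 fell with WT IL-2, and no other member passed edgeR's test with IL-2. With H16R, DESeq2 and limma on log2(FPKM + 1) called more members than edgeR did. Foxp3 in Tcons was at 59.0 and 53.3 CPM with isotype and PBS, 98.2 and 183 with WT IL-2, 130.4 and 135 with H16R and 111 and 91.0 with 3x. With block it was at 68.0 and 76.7 CPM, 46.8 and 67.9, 95.2 and 84.6, and 95.3 and 93.8 CPM in the same order. The H16R and 3x libraries were thus above all PBS libraries, while WT IL-2 spread over the whole range. The log2 fold change was 0.73 ± 0.281 with H16R (adjusted p = 0.0782), 0.52 ± 0.284 with WT IL-2 (adjusted p = 0.21) and 0.58 ± 0.279 with 3x (adjusted p = 0.237). Without isotype WT IL-2 replicate 2, whose Ikzf2 was 497 CPM against 174 in its partner, the 3 values were 0.76 (adjusted p = 0.0126), 0.14 (adjusted p = 0.623) and 0.59 (adjusted p = 0.0656). The H16R call was lost in 6 of 24 alternatives, among them without isotype PBS replicate 2 (0.54, adjusted p = 0.211). Ikzf4 with H16R was 0.34 ± 0.242 (adjusted p = 0.323), and 0.35 (adjusted p = 0.0402) without isotype WT IL-2 replicate 2. The 5 Treg markers, Foxp3 among them, were also higher with H16R. They summed to 296 to 337 CPM in isotype PBS Tcons and 546 to 557 CPM in isotype H16R Tcons, and to 389.8 to 397 and 413 to 417 CPM under block. With WT IL-2 they summed to 470.5 to 1052 CPM with isotype and 242 to 332 CPM under block. With 3x the sums were 388 to 487 CPM with isotype and 355 to 367 CPM under block. The latter were below block PBS, whereas Foxp3 with block 3x was above it. Of the 25 genes of a Treg signature without the members, 12 were higher and 0 lower in Tcons with H16R (31.1% of all tested genes were called). With WT IL-2 these counts were 11 and 0 (27.2%), and with 3x 6 and 0 (9.88%). The list's median log2 fold change was 0.26 with H16R, 0.38 with WT IL-2 and -0.04 with 3x. The part of Treg RNA in the Foxp3 values was not tested.

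The members called in Tcons were 1 of 5 with WT IL-2 (27.2% of all tested genes), Ikzf1 (-0.22 ± 0.0614, adjusted p = 0.0297); 1 of 5 with H16R (31.1%), Foxp3; and 0 of 5 with 3x (9.88%), where 0 members had an unadjusted p under 0.05 by edgeR (Foxp3 had an unadjusted p of 0.058) and DESeq2 also called 0. Block against isotype called 3 of 5 (28.9%), all lower with block: Ikzf2 (-0.61 ± 0.219, adjusted p = 0.0688), Ikzf4 (-0.50 ± 0.173, adjusted p = 0.0592) and Ikzf3 (-0.28 ± 0.0375, adjusted p = 0.00103). Ikzf3 was at 263 and 259 CPM in isotype PBS Tcons and 208 and 206 CPM in block PBS Tcons, and the B cell markers summed to 1088 to 1215 and 194 to 207 CPM in the same libraries. With H16R Ikzf3 was at 244 and 263 CPM with isotype and 233 and 214 with block, with WT IL-2 at 227 and 233 and at 202 and 205 CPM, and with 3x at 248 and 254 and at 191 and 184 CPM. The B cell markers were lower with block for 3x as well, at 445 to 557 and 174 to 218 CPM, but their ranges overlapped for H16R (202 to 266 and 213 to 364 CPM) and WT IL-2 (277 to 434 and 346 to 424 CPM). The part of B cell RNA in the Ikzf3 difference was not tested. In the same comparison 0 of the 25 Treg signature genes were higher and 9 lower with block (median -0.36, all tested genes 0.00), beside Ikzf2 and Ikzf4, and the part of Treg RNA was not tested. Without isotype WT IL-2 replicate 2, the block differences of Ikzf2 and Ikzf4 were -0.36 (adjusted p = 0.0461) and -0.32 (adjusted p = 0.0306). The block comparison takes the molecules together. In PBS Tcons Ikzf2 was not lower with block, at 170 and 149 CPM with isotype and 167 and 185 with block. Ikzf4 there was at 10.8 and 10.0 CPM with isotype and 9.81 and 9.76 with block. Mean Ikzf2 with isotype and block was 336 and 125 CPM with WT IL-2, 237 and 159 with H16R, and 181 and 121 with 3x. Mean Ikzf4 was 17.4 and 7.33, 15.0 and 11.1, and 13.4 and 11.3 CPM. The Ikzf2 call was lost in 8 of 24 alternatives, among them limma on log2(FPKM + 1) (-0.47, adjusted p = 0.107), and the Ikzf4 call in 3 of 24. Beside the fall of Ikzf1 with WT IL-2, which was called in 24 of 24 alternatives, markers of other cells also moved. The plasma cell markers summed to 930.4 to 1331 CPM with PBS and 1489 to 2877 with WT IL-2 with isotype, and to 801 to 1159 and 2588 to 2726 CPM under block. The myeloid markers summed to 51.8 to 52.8 CPM with PBS and 679 to 825 with WT IL-2 under block, but to 171 to 188 and 89.2 to 140.4 CPM with isotype. The erythroid markers were at most 10.7 CPM with PBS and 17.3 to 272 with WT IL-2 with isotype. The part of these cells in the Ikzf1 value was not tested.

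**Figure D5:**
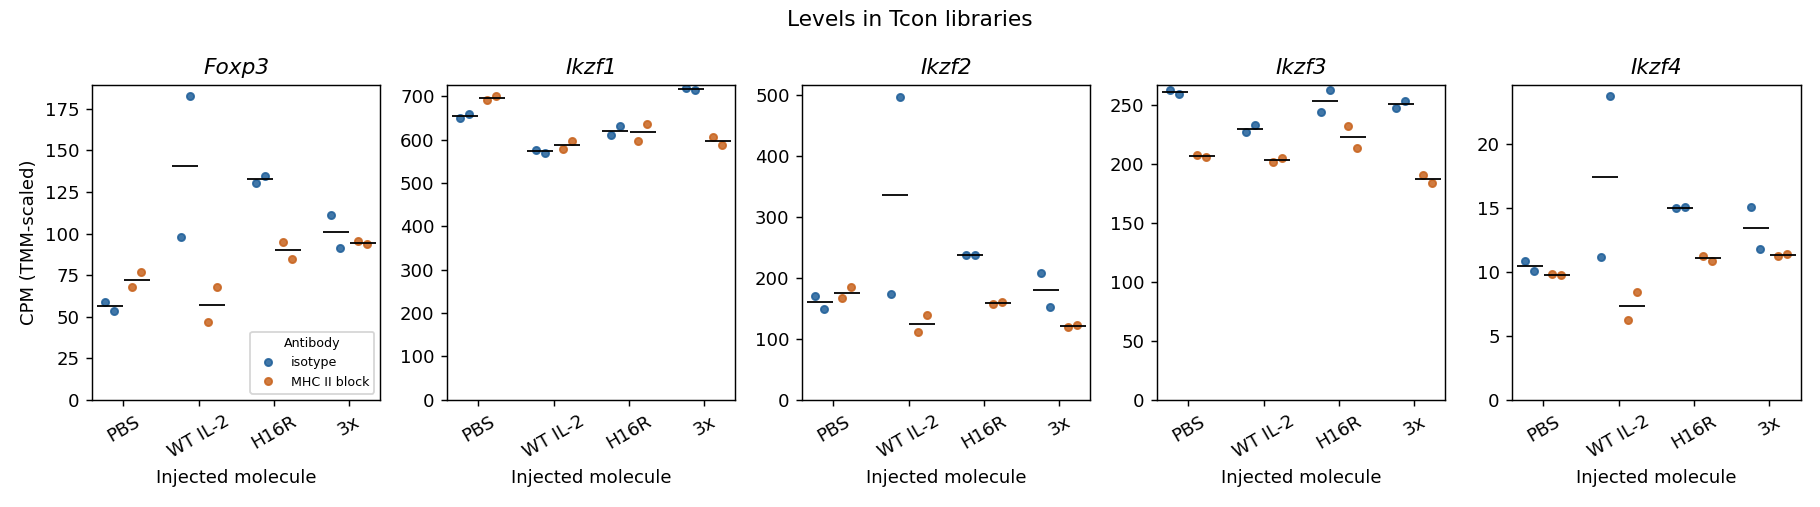
Level of each gene (TMM-scaled CPM, vertical axis from 0) in the 16 Tcon libraries, by injected molecule and colored by antibody; points are libraries (n = 2 per group) and black dashes group means. Isotype WT IL-2 replicate 2 stands out at 183 CPM of Foxp3 and 497 CPM of Ikzf2, and Ikzf3 is lower with MHC II block (184 to 233 CPM) than in most isotype libraries.

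The genes whose level most resembled each member over the 32 Treg libraries were named by Pearson's r of log2 CPM among 9523 other genes, as a description; the libraries share treatments, and r within groups is r of the deviations from the group means. Foxp3 was most like Tnfaip8l1 (r = 0.95, within groups 0.57), Ssbp3 (0.95, 0.74) and Capn1 (0.95, 0.66) and least like Frmd4a (-0.96, -0.72). Ikzf2 was most like Trip12 (0.92, 0.86), Sntb1 (0.92, 0.78) and Nrd1 (0.92, 0.70) and least like Abi3 (-0.89, -0.81). Ikzf3 was most like Rasa3 (0.95, 0.45), Iqgap2 (0.95, 0.57) and Ap1b1 (0.94, 0.41), with Pabpc4 at the far end (-0.95, -0.58), and Ikzf4 was most like Ankrd12 (0.93, 0.80), the DNA methyltransferase gene Dnmt3a (0.92, 0.79) and Ythdc1 (0.92, 0.80), with Ostf1 at the far end (-0.92, -0.77). Ikzf1 had the weakest likeness, with Dpp4 (0.85, 0.80), Kremen1 (0.83, 0.55), Themis (0.80, 0.72) and, at the far end, Ttc39c (-0.84, -0.66). Among the members, Foxp3 and Ikzf3 had r = 0.79 over all libraries but -0.17 within groups, so their likeness lay in the group means. Ikzf2 and Ikzf4 were the reverse, with r = 0.18 over all libraries and 0.78 within groups.

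Genes around the members were described from lists, whose counts are to be read against the shares of all tested genes called in the same 6 comparisons: 52.2, 64.2 and 63.6% with isotype and 35.6, 66.5 and 73.0% under block for WT IL-2, H16R and 3x. The median of all tested genes lay between -0.04 and 0.02 in these comparisons. Of 30 genes that regulate Foxp3, 9 rose and 6 fell with WT IL-2, 11 and 7 with H16R and 12 and 6 with 3x in the isotype arm, with medians of 0.01, 0.04 and 0.02. Under block 3 rose and 6 fell with WT IL-2, 11 and 12 with H16R and 11 and 13 with 3x, with medians of -0.05, 0.00 and -0.08. Of those called in all 6 comparisons, Runx3, a Runt family factor, rose (0.27 to 0.72), Smad3, which relays TGF-beta signals, rose (0.12 to 0.31), Tet3, a DNA demethylating dioxygenase, fell (-0.52 to -0.26) and Rela, an NF-kappaB subunit, fell (-0.21 to -0.10). Of 21 partners of Foxp3, 8 rose and 6 fell with WT IL-2, 9 and 6 with H16R and 7 and 6 with 3x with isotype, and 2 and 7, 10 and 8, and 10 and 8 under block, with medians from -0.01 to 0.06. Tcf7 (-0.97 to -0.19), Foxp4 (-0.69 to -0.20) and Bcl11b (-0.48 to -0.22), transcription factors, fell in all 6, whereas the deacetylase gene Hdac7 fell with WT IL-2 under block (-0.17) and rose in the other 5 (0.10 to 0.34).

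Of 19 genes of the corepressor complexes that Ikaros proteins join, 18 were tested; 5 rose and 5 fell with WT IL-2, 7 and 6 with H16R and 8 and 7 with 3x with isotype, and 3 and 4, 7 and 6, and 7 and 7 under block, with medians from -0.05 to 0.05. Hdac2 (-0.52 to -0.14) and Mbd3 (-0.38 to -0.18) fell, and Mta2 (0.10 to 0.40) and Mta3 (0.11 to 0.42) rose, in all 6. Of 6 genes of the cereblon ligase and the related family member Ikzf5, 2, 5 and 4 rose with WT IL-2, H16R and 3x with isotype, and 0, 3 and 3 under block, and 0 fell in these 6 comparisons, with medians from 0.02 to 0.18. Of 25 genes of a Treg signature, 22 rose and 1 fell with WT IL-2, 21 and 2 with H16R and 18 and 1 with 3x with isotype, with medians of 0.68, 0.55 and 0.55. Under block 13 and 2, 19 and 3, and 18 and 5 did so, with medians of 0.17, 0.63 and 0.74. Il1rl1 (1.56 to 2.64), Il10 (1.31 to 2.91), Klrg1 (1.53 to 2.22) and Socs2 (0.86 to 1.88) rose in all 6. Of 12 genes low in Tregs, a list that Tcf7 is also on, 7 fell and 0 rose with WT IL-2, 6 and 1 with H16R and 3 and 4 with 3x with isotype, with medians of -0.35, -0.20 and -0.10. Under block 6 fell and 1 rose with WT IL-2, 9 and 1 with H16R and 9 and 1 with 3x, with medians of -0.23, -0.50 and -0.65. In the Treg to Tcon comparison over 16 mice, all 25 signature genes were called higher and all 12 others lower in Tregs. In that comparison 80.5% of all tested genes were called. The lists were chosen as genes high or low in Tregs, and Il2ra, on the first, encodes the CD25 used for separation. The outcome was thus largely set in advance. None of the 5 members is on either list.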

How the data were processed

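RNA was sequenced from magnetically separated splenic Tregs (32 libraries) and Tcons (16 libraries) as stranded polyA libraries. Per the study's methods, the authors aligned reads to mouse B38 with OSA in Omicsoft Array Suite and quantified genes with RSEM; the stated gene model is not one of mouse, so genes were placed with GENCODE vM21, in which 96.58% of the matrix's gene names were found. The expected counts and the FPKM values are as the authors deposited them, 1 table each. Tables of the authors' own DESeq2 comparisons (fold changes and p-values) were not used. The number of columns of samples from elsewhere was 0. Totals of 18.28 to 51.95 M expected counts per library set the precision; counts of the members start at 247.

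Expected counts were rounded, restricted to protein-coding genes above 0.5 CPM in at least 4 libraries, TMM-scaled and tested with edgeR 4.0.16 (R 4.3.3) by the quasi-likelihood F test, with Benjamini-Hochberg adjustment over all tested genes and a threshold of 0.1 for a call. The Treg fit held the 8 groups (32 libraries). Tregs were set against Tcons in 16 mice, the mouse being a block whose pairing comes from the labels. Tcons were fitted with molecule and antibody terms (16 libraries). An SE is the fold change divided by the root of F. FPKM was used to compare genes with each other and in an alternative fit.

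Samples were grouped by GEO's labels. Libraries of 1 group differed by at least 3.88 in chi-square per gene over 56 pairs, so none was a copy. Alternatives were RLE or total-count scaling, DESeq2 1.42.0, limma 3.58.1 on log2(FPKM + 1), no filter, all biotypes, empty cells as 0, a replicate block, only the groups compared, thinning, and leaving out libraries. Named genes outside the members were the 3 most and the 1 least alike by Pearson's r, and up to 4 genes of a list called in all 6 comparisons of IL-2 with PBS. The members and lists were chosen with earlier results of these data known.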

Additional observations from a re-analysis of the deposited data

Results flagged for a closer look

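Ikzf3 in isotype 3x Tregs had 1 library far from the rest of its group: replicate 4 was at 335 CPM and the others at 307 to 311 CPM, a gap of 0.868 of the group's range. It was the single such case among 40 combinations of member and group, of which about 5% are passed by chance.

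In 10 of 15 tests, the effect of IL-2 against PBS in Tregs differed between MHC II block and isotype (block minus isotype, log2). Of all tested genes, 19.7% differed so for WT IL-2, 19.1% for H16R and 39.0% for 3x. Foxp3 differed by -0.46 for WT IL-2, by -0.21 for H16R and by -0.26 for 3x. For Ikzf2 they were -0.41 with H16R and -0.40 with 3x, and for Ikzf4 -0.32 with H16R and -0.45 with 3x. Ikzf3 differed by -0.16 with WT IL-2. Ikzf1 differed in the other direction, by 0.19 with WT IL-2 and 0.21 with 3x. The 4 calls for 3x and that of Foxp3 for WT IL-2 held in 43 of 43 alternatives, whereas the other 5 were lost in some, and leaving out 1 library could lose all 3 for H16R.

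The difference between Tregs and Tcons was not the same with a mutein as with PBS for 3 members, beside 40.6% of all tested genes for H16R and 46.5% for 3x. The Treg excess of Ikzf4 was smaller by -0.59 with H16R and -0.55 with 3x on the log2 scale. That of Ikzf3 was larger by 0.37 with H16R and 0.50 with 3x, and that of Ikzf2 larger by 0.68 with 3x. Among these, that of Ikzf3 with 3x was called in 24 of 24 alternatives.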

How the results depend on the processing

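Of 5525 repeats of the members' results under the alternatives, 5310 kept their direction and side of the threshold, 158 lost a call, 57 gained one and 0 reversed. The number of members called moved by more than 1.5 times in the following cases; smaller shifts, of 1 call each, are not listed. For 3x against H16R under block it was 1 rather than 0 with RLE factors, total counts, DESeq2, all biotypes and without the 2 libraries that stand apart. For block against isotype with PBS it was 2 rather than 1 with total counts and limma, and 0 with no filter, all biotypes, only the groups compared, thinning and without those 2 libraries. The H16R interaction had 1 rather than 3 with no filter and all biotypes, and the WT IL-2 interaction 1 rather than 3 with only the groups compared. Under block, limma called 2 rather than 1 with WT IL-2 and 3 rather than 5 with 3x. The H16R difference in the Treg to Tcon contrast had 1 rather than 2 with RLE, total counts, no filter, all biotypes and limma, and H16R in Tcons 2 rather than 1 with DESeq2 and limma. The cause was not tested.

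Leaving out 1 library or mouse gave 0 to 1 for 3x, 0 to 2 for H16R, 1 to 2 for WT IL-2 and 1 to 4 for block in Tcons; in Tregs 1 to 3 for block against isotype with H16R, 0 to 2 with PBS, 0 to 1 for 3x against H16R under block, and 0 to 3 and 1 to 3 for the H16R and WT IL-2 interactions; and 0 to 2 and 0 to 1 for the H16R and WT IL-2 differences in the Treg to Tcon contrast.

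Replicate numbers in different Treg groups mark different mice: deviations of 112 same-numbered pairs correlated at -0.50 to 0.67 (median 0.03). A replicate block kept 113 of 115 results. With it the Ikzf1 WT IL-2 interaction was 0.18 (adjusted p = 0.114) and that of Ikzf2 -0.36 (adjusted p = 0.0894). Without the mouse block, all 40 Treg to Tcon results kept their call. Over all genes, using only the groups compared moved the calls for block against isotype with PBS from 1751 to 780 and for isotype 3x against H16R from 1429 to 2258. In Tcons, all biotypes moved 3x against PBS from 1238 to 2000. Leaving out replicate 2 of isotype WT IL-2 gave 2218 for 3x, and moved WT IL-2 from 3412 to 5397. Leaving out 1 library gave as few as 513 for Tcon 3x, 1753 for Tcon WT IL-2, 591 for isotype 3x against H16R and 907 (of 2309) for isotype H16R against WT IL-2; in all, 11 comparisons moved by more than 1.5 times with some library or mouse left out.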
